A study of Mus musculus with 6 samples.

Results

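Transcript levels of 9 transcription factor genes that set the identity of newborn neurons were examined in male mouse embryos with and without the chromatin protein Smchd1. These genes were *Isl1*, *Isl2*, *Lhx3* and *Mnx1*, which act in motor neurons, *Lhx1* and *Lhx5*, which act in interneurons, and *Phox2a*, *Pou4f1* and *Tlx3*, which act in sensory and hindbrain neurons. They were selected by gene symbol, and each of the 9 matched a single locus among the 24207 loci of the expression table. These genes, and the lists set beside them below, were chosen with earlier results of these data known. Counts set against the share of all loci are therefore descriptions and not independent support. The study sequenced RNA from whole embryos at E9.5, with 3 Smchd1+/+ (wildtype) and 3 Smchd1MommeD1/MommeD1 (mutant) embryos, all of them male. Smchd1MommeD1/MommeD1 embryos are homozygous for a chemically induced nonsense allele of *Smchd1*, and both genotypes came from matings between heterozygous parents. The sample labels give the background as C57Bl6/J x FVB/n, whereas the study's text describes a backcross to another strain for this experiment, so the background of these embryos is uncertain. The table holds 1 FPKM value per genotype, pooled by the authors over its 3 embryos, where FPKM counts fragments scaled to transcript length and to library size. No spread between embryos could therefore be computed, no test was run, and how deeply each library was sequenced is not known.

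Neurons leave the cell cycle in the neural tube and in the cranial and dorsal root ganglia, and as they do so they switch on homeodomain transcription factors that mark their class. The LIM-homeodomain proteins, which carry a pair of LIM domains beside the DNA-binding homeodomain, work in combinations. Isl1 together with Lhx3, held in a complex by the adaptor Ldb1, directs spinal motor neuron fate, Mnx1 represses the neighbouring interneuron programme, and Lhx1 and Lhx5 mark several interneuron classes. Outside the LIM family, Phox2a acts in noradrenergic and cranial motor neurons, Pou4f1 (Brn3a) in sensory ganglia and Tlx3 in excitatory dorsal horn and sensory relay neurons. Several of these genes also act outside neurons, with *Isl1* in the second heart field, *Lhx1* in the nephric duct, *Lhx3* in the pituitary pouch and *Mnx1* in notochord and foregut endoderm.

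The genotypes were as labelled, since *Smchd1* was at 2.12 FPKM in mutant embryos against 34.0 FPKM in wildtypes. Differences are given as the log2 ratio of mutant over wildtype FPKM, with 0.1 FPKM added to each value, so that the changes of low genes are understated. Of the loci in the table, 11863 had a gene symbol, an estimate that had not failed and a mean of at least 1 FPKM over both genotypes. Their median log2 ratio was -0.007, and 3.22% of them were at least 1.5-fold higher and 1.06% at least 1.5-fold lower in mutant embryos. Low loci were both more scattered and shifted upwards. Between 1 and 2 FPKM the share at least 1.5-fold higher was 12.2%, between 2 and 5 FPKM it was 6.20%, between 5 and 10 FPKM it was 2.62%, and between 0.3 and 1 FPKM it was 16.9%. The shares at least 1.5-fold lower were 2.27%, 2.16%, 1.13% and 5.78% in the same order. By any amount, 60.7%, 52.3%, 50.2% and 60.8% of these loci were higher in mutant embryos. With no replicate values, each gene is set below against the loci of its own range of mean FPKM.

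The 9 genes were expressed at low levels in whole embryos. *Isl1* alone held 41.5% of their summed FPKM in wildtype and 39.7% in mutant embryos, and each of the others lay below 3 FPKM in both genotypes. In wildtype embryos the order from high to low was *Isl1*, *Lhx5*, *Phox2a*, *Pou4f1*, *Mnx1*, *Lhx1*, *Isl2*, *Lhx3* and *Tlx3*. *Isl2* stood at rank 7 in wildtype and rank 4 in mutant embryos, *Pou4f1* moved from rank 4 to rank 2, and *Phox2a* from rank 3 to rank 6. Since the spread between embryos is unknown, neighbours in this order cannot be called different. The authors' program marked all 9 loci as deep enough for comparison.

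Of the 9 genes, 8 had a higher FPKM in mutant embryos and *Phox2a* had a lower one. Among all named loci with any expression 51.2% were higher, and 50.2% to 60.8% in the ranges of mean FPKM that hold the 9 genes. Past 1.5-fold were 4 of the 9, against 5.73% of the loci with any expression and 6.20% to 16.9% in the ranges that hold these 4. The sum over the 9 genes was 21.6 FPKM in mutant embryos against 16.2 FPKM in wildtypes, 1.33-fold. For the 7 genes whose mean reached 1 FPKM, all of which reached 1 FPKM in both genotypes, the median log2 ratio was 0.21 against -0.007 for all loci. Of these 7, 6 were higher by some amount, against 48.2% of the loci compared and 50.2% to 60.7% in their own ranges of mean FPKM. *Isl2* and *Pou4f1* were at least 1.5-fold higher, against 3.22% of the loci compared. The share was 12.2% in the range of *Isl2* and 6.20% in that of *Pou4f1*. *Lhx3* and *Tlx3*, with means below 1 FPKM, were also past 1.5-fold, where 16.9% of loci at that level were. *Isl1*, *Isl2*, *Lhx3*, *Pou4f1* and *Tlx3*, 5 of the 9, had a log2 ratio above that of at least 90% of loci of like level, a position held by 9.98% of all loci over 0.3 FPKM. The choice of 90% was made after the values were seen, and the 9 genes were chosen with earlier results of these data known. In whole-embryo RNA, more cells of a type and more RNA per cell cannot be told apart.

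**Figure D1:**
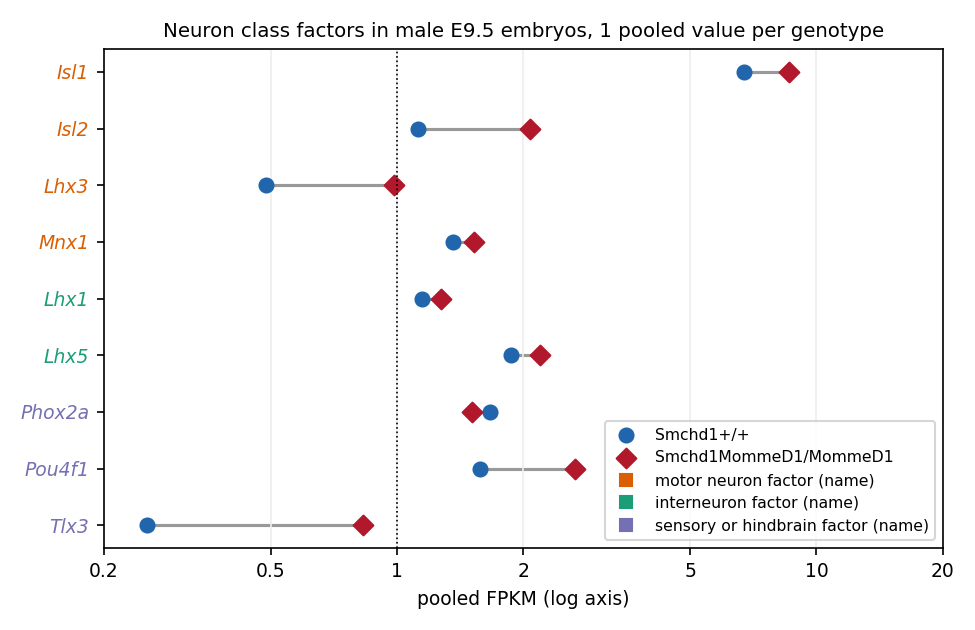
Pooled FPKM (log axis) of the 9 neuron class factors, with a blue circle for Smchd1+/+ and a red diamond for Smchd1MommeD1/MommeD1 embryos, 1 value per genotype. The dotted line marks 1 FPKM and the colour of a name gives the neuron class. The diamond lies right of the circle for 8 genes and left of it for *Phox2a*.

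The 4 motor neuron factors were all higher in mutant embryos, but by unequal amounts. *Isl1*, a LIM-homeodomain factor of motor and sensory neurons, lies on the minus strand at chr13:116298270-116309760 of mm10. It was at 8.58 FPKM in mutant embryos against 6.72 FPKM in wildtypes, a log2 ratio of 0.35. That difference of 1.86 FPKM exceeded that of each other member, although the fold of 1.27 did not reach 1.5. Of the 2212 loci between 5 and 10 FPKM, 92.7% had a lower log2 ratio.

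*Isl2*, the paralogue that follows *Isl1* in postmitotic motor neurons, lies on the plus strand at chr9:55541149-55547069. Its level was 2.07 FPKM in mutant against 1.12 FPKM in wildtype embryos, a log2 ratio of 0.84, above 93.9% of the 1143 loci between 1 and 2 FPKM. *Lhx3*, the partner of Isl1 in motor neurons and a factor of V2 interneurons and pituitary, lies on the minus strand at chr2:26200212-26208124. It was measured at 0.981 FPKM in mutant embryos against 0.488 FPKM in wildtypes, a log2 ratio of 0.88. These *Isl2* and *Lhx3* ratios were close to each other, and that of *Lhx3* was above 91.3% of the 1677 loci between 0.3 and 1 FPKM. An antisense transcript annotated by GENCODE M21, *Gm27196*, covers 188 of the 2415 exonic bases of *Lhx3*. The libraries were nondirectional, so reads of the 2 strands cannot be separated there.

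*Mnx1* (Hb9), which marks committed motor neurons, lies on the minus strand at chr5:29473234-29478470. Its values of 1.53 FPKM in mutant embryos against 1.36 FPKM in wildtypes gave a log2 ratio of 0.15, above 60.4% of loci at its level. *Mnx1* thus lay near the middle of its range, where 60.7% of loci were higher in mutant embryos by some amount. The 4 motor neuron factors together summed to 13.2 FPKM in mutant embryos against 9.69 FPKM in wildtypes, 1.36-fold, with *Isl1* giving most of both sums.

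The interneuron factors differed little between the genotypes. *Lhx1*, which acts in dorsal and ventral interneurons and in the nephric duct, lies on the minus strand at chr11:84518032-84525635. Its level was 1.27 FPKM in mutant embryos against 1.15 FPKM in wildtypes, a log2 ratio of 0.13. *Lhx5*, its close paralogue, lies on the plus strand at chr5:120431886-120441457. It was found at 2.19 FPKM in mutant embryos against 1.87 FPKM in wildtypes, a log2 ratio of 0.21. The *Lhx1* ratio was above 57.3% and the *Lhx5* ratio above 77.3% of loci at like levels, so both lay within the bulk of loci. Their summed FPKM was 1.14-fold higher in mutant embryos.

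The sensory and hindbrain factors held the widest range, from the largest log2 ratio of the 9 genes to the only one below 0. *Tlx3*, a selector of excitatory over inhibitory fate in the dorsal horn, lies on the minus strand at chr11:33200752-33203588. At 0.830 FPKM in mutant embryos against 0.253 FPKM in wildtypes, it was the lowest of the 9 genes in each genotype. Its log2 ratio of 1.40 was above 97.3% of the 1677 loci between 0.3 and 1 FPKM. *Pou4f1*, a POU-homeodomain factor of sensory ganglia and dorsal interneurons, lies on the minus strand at chr14:104462325-104467999. Its transcripts were at 2.65 FPKM in mutant embryos against 1.58 FPKM in wildtypes, a log2 ratio of 0.71, above 95.9% of the 2129 loci between 2 and 5 FPKM.

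*Phox2a*, which is needed for noradrenergic neurons of the locus coeruleus and for oculomotor neurons, was the exception. In the table its locus, chr7:101818313-101838226, is shared with *Inppl1*, a broadly expressed inositol phosphatase gene on the opposite strand. GENCODE M21 places *Phox2a* itself at 101818313 to 101822726 on the plus strand. *Phox2a* was at 1.51 FPKM in mutant embryos against 1.67 FPKM in wildtypes, a log2 ratio of -0.13. *Inppl1* was at 26.5 and 27.2 FPKM, a log2 ratio of -0.04. The exons of both genes overlap over 95 of the 1609 exonic bases of *Phox2a*, and with nondirectional libraries the part of *Inppl1* reads in its value was not tested.

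**Figure D2:**
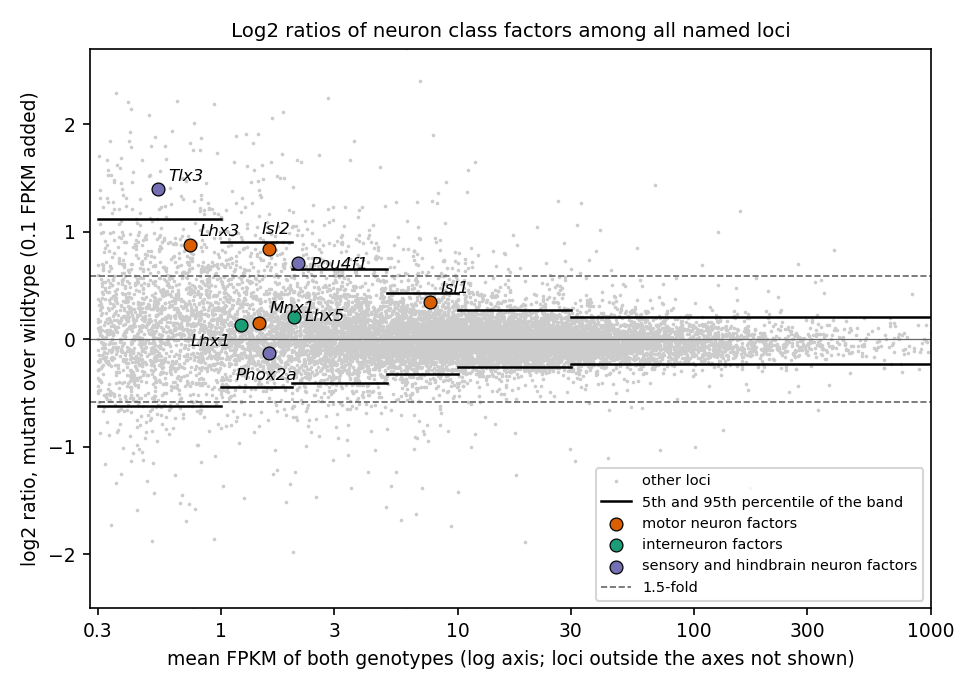
Log2 ratio of mutant over wildtype FPKM (0.1 FPKM added) against the mean FPKM of both genotypes (log axis) for named loci over 0.3 FPKM in grey, with the 9 neuron class factors coloured by class. Black steps give the 5th and 95th percentile of loci in each range of mean FPKM, and dashed lines 1.5-fold. *Pou4f1* and *Tlx3* lie above the upper step, *Isl1* and *Isl2* just below it, and *Lhx3* further below it (0.88 against 1.12).

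Since most of these genes were higher together, the bases just before their starts were compared. RefSeq promoters of build GRCm38.p6 were found for 8 of the 9 genes, with 2 for *Lhx3* and none shown for *Lhx5*, and the 250 bases before each start were searched. The letters sought were TAAT on either strand, the core that many homeodomain proteins bind, its palindrome TAATTA, and CANNTG, the E-box of bHLH proteins. TAAT occurred in 5 of the 9 windows and in 54.9% of all 32851 promoters, and CANNTG in 4 of the 9 and in 66.2% of all. TAATTA occurred in 0 of the 9 and in 4.84% of all. These matches are letters and not binding sites. The windows of the gene with the largest log2 ratio (*Tlx3*), of the one with the highest level (*Isl1*) and of the only lower one (*Phox2a*) are given 5′ to 3′, with TAAT or its reverse complement ATTA and CANNTG in capitals.
*Tlx3*, chr11:33203589-33203838, minus strand: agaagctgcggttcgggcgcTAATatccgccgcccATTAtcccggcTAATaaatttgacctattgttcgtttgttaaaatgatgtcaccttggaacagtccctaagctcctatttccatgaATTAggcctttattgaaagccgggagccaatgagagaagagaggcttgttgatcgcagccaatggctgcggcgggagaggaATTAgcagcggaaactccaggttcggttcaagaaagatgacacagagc
*Isl1*, chr13:116309689-116309938, minus strand: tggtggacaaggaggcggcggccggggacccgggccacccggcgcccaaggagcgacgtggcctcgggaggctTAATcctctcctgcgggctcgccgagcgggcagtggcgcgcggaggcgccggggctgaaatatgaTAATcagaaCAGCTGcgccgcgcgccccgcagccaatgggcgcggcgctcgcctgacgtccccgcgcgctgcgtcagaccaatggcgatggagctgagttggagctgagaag
*Phox2a*, chr7:101818063-101818312, plus strand: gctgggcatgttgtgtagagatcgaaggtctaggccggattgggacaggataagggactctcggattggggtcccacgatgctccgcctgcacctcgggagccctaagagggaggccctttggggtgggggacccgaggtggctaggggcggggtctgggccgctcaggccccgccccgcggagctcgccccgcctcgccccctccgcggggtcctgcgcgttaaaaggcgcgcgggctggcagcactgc
The *Tlx3* window held TAAT 5 times and no E-box, and its GC content was 48.8%. In the *Isl1* window TAAT occurred 2 times and an E-box 1 time, at a GC content of 71.2%, whereas neither was found for *Phox2a* at a GC content of 70.4%.

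The direction seen for *Isl1*, *Isl2*, *Lhx1*, *Lhx3* and *Lhx5* extended to the rest of their family. All 12 LIM-homeodomain genes in the table were higher in mutant embryos by some amount, with log2 ratios from 0.13 (*Lhx1*) to 1.80 (*Lhx4*). Of all named loci with any expression, 51.2% were higher. The share was 50.2% to 60.8% in the ranges from 0.3 to 10 FPKM, which hold all 12 but *Lhx2*. Each of the 8 whose mean reached 1 FPKM stayed higher under every scaling tried. Equal upper quartiles and equal totals changed mutant values by factors of only 1.012 and 0.989, and a pseudocount cannot change a direction. Among the 7 other family genes, 4 had a mean of at least 1 FPKM, with a median log2 ratio of 0.65. *Lhx2*, a factor of forebrain, eye and limb, was at 20.3 FPKM in mutant embryos against 13.1 FPKM in wildtypes, a log2 ratio of 0.63. *Lmx1b*, which acts in dorsal interneurons, midbrain and limb, was at 6.38 and 3.97 FPKM (log2 ratio 0.67), and *Lhx9*, which acts in dorsal commissural neurons and the gonad, at 5.55 and 2.31 FPKM (log2 ratio 1.23). *Lmx1a*, of the roof plate and midbrain floor, was at 3.23 and 2.84 FPKM, a log2 ratio of 0.18. Below 1 FPKM, and named after their values were seen, *Lhx4* had a log2 ratio of 1.80, *Lhx8* of 1.21 and *Lhx6* of 0.34. Of the 12, 7 were past 1.5-fold, against 5.73% of all named loci with any expression. Among the 8 with a mean of at least 1 FPKM there were 4, where 3.22% of all loci were past it. In the ranges of *Isl2*, *Lhx9* and *Lmx1b* the share was 2.62% to 12.2%. *Lhx3*, *Lhx4* and *Lhx8* lay between 0.3 and 1 FPKM on average, where 16.9% of loci were past it.

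**Figure D3:**
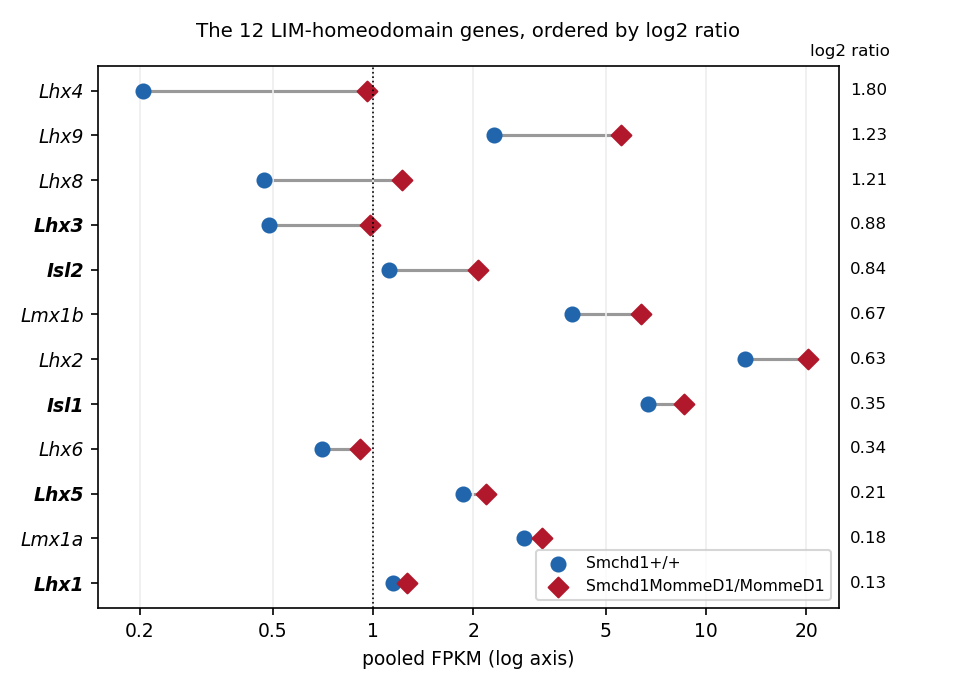
Pooled FPKM (log axis) of the 12 LIM-homeodomain genes in Smchd1+/+ (blue circles) and Smchd1MommeD1/MommeD1 embryos (red diamonds), ordered by the log2 ratio printed at the right. Names in bold are neuron class factors of the report, and the dotted line marks 1 FPKM. The diamond lies right of the circle in all 12.

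The genes for proteins that bind LIM-homeodomain factors had a median near that of all loci, although single genes among them were higher. Of 9 genes for LIM-domain partners with a usable estimate, 5 were higher and 4 lower, with a median log2 ratio of 0.02, and *Ssbp4* was the only one past 1.5-fold. *Ldb1*, the adaptor that joins LIM factors into complexes, was at 63.2 FPKM in mutant embryos against 58.4 FPKM in wildtypes, a log2 ratio of 0.12. *Ssbp3* and *Ssbp4* encode single-stranded DNA-binding proteins that stabilise Ldb1, and their log2 ratios were 0.25 (83.7 and 70.4 FPKM) and 0.82 (18.0 and 10.1 FPKM). *Lmo1*, named after its values were seen, was at 9.87 and 6.60 FPKM (log2 ratio 0.57). *Ssbp3*, *Ssbp4* and *Lmo1* lay above the 95th percentile of loci in their ranges of mean FPKM, which was 0.21, 0.27 and 0.43. These partners are used in many tissues.

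Genes closest in kind outside the LIM family gave a mixed picture. Of 5 relatives of *Phox2a*, *Pou4f1* and *Tlx3*, 2 had a mean of at least 1 FPKM, 1 of them higher and 1 lower, with a median log2 ratio of -0.09. Over all 5, 4 were higher and the median was 0.47, where 51.2% of all named loci with any expression were higher. The lower one was *Tlx1*, a factor of spleen and cranial ganglia, at 1.06 FPKM in mutant embryos against 1.58 FPKM in wildtypes (log2 ratio -0.53). Among the relatives at lower levels, *Pou4f2* and *Pou4f3* were below 0.1 FPKM in both genotypes, with log2 ratios of 0.47 and 0.56, and *Tlx2* was at 1.13 and 0.566 FPKM (log2 ratio 0.89), and these 3 were named after their values were seen. Of 14 further neuron class factors, 6 had a mean of at least 1 FPKM, 5 of them higher and 1 lower, with a median log2 ratio of 0.26. *Onecut1* and *Onecut2*, which act in motor neurons and interneurons, had log2 ratios of 0.91 (2.42 and 1.24 FPKM) and 0.79 (2.28 and 1.28 FPKM). *Evx1*, a factor of V0 interneurons that is also expressed in the primitive streak and tail bud, had a log2 ratio of -1.23 (1.19 and 2.93 FPKM). The *Evx1* locus is shared with another gene, and without shared loci the median of 0.26 became 0.38. With the genes below 1 FPKM included, 12 of the 14 were higher and the median was 0.74. Of all named loci with any expression 51.2% were higher, and 60.8% of those between 0.3 and 1 FPKM.

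Upstream of the neuron class factors, progenitor and proneural genes differed from each other. The factors that divide the neural tube into progenitor domains were near the median of all loci, with a median log2 ratio of 0.12 and 0 of 10 past 1.5-fold in either direction, against 3.22% of loci higher and 1.06% lower. Of these 10, 7 were higher and 3 lower, where 48.2% of the loci compared were higher. *Irx3* was at 19.3 FPKM in mutant embryos against 19.7 FPKM in wildtypes and *Pax6* at 14.5 and 15.6 FPKM, both among the lower ones. Over all 12 domain factors at any level, 9 were higher and the median was 0.16. Only *Gsx1*, named after its values were seen, was past 1.5-fold, at 0.760 and 0.170 FPKM (log2 ratio 1.67). The proneural and early neuronal bHLH factors, which drive progenitors to leave the cell cycle as neurons, were all 7 higher, with 6 past 1.5-fold and a median log2 ratio of 0.90. *Neurog1* was at 7.96 and 4.39 FPKM (log2 ratio 0.84), *Neurod4* at 5.92 and 3.13 FPKM (0.90) and *Nhlh1* at 7.13 and 2.28 FPKM (1.60), mutant before wildtype.

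Genes that carry out the work of particular neuron classes were barely detected at this stage. Of 16 such genes, 3 had a mean of at least 1 FPKM, among them the neurotrophin receptor *Ntrk2* (2.27 and 1.51 FPKM, log2 ratio 0.55) and the receptor kinase *Ret* (2.18 and 2.97 FPKM, -0.43), and the median of the 3 was -0.17. Over all 16, including those near 0 FPKM, 10 were higher and 6 lower, and 5 were at least 1.5-fold higher. Of all named loci with any expression, 51.2% were higher and 5.73% at least 1.5-fold higher. Between 0.3 and 1 FPKM these shares were 60.8% and 16.9%, and below 0.3 FPKM they were not computed. The median of the 16 was 0.28, so that the sign of the median depends on the low genes. Below 1 FPKM, *Slc18a3* and *Chat* were named after their values were seen. *Slc18a3*, the vesicular transporter of acetylcholine in motor neurons, was at 1.31 FPKM in mutant embryos against 0.314 FPKM in wildtypes, a log2 ratio of 1.77. *Chat*, which makes acetylcholine, was near 0 in both genotypes, at 0.0342 and 0.0358 FPKM, and it shares its locus with *Slc18a3*, so that the division of reads between them is uncertain.

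Markers shared by all neurons exceeded the neuron class factors. Of the 10 pan-neuronal genes whose mean reached 1 FPKM, all 10 were higher in mutant embryos and 9 were past 1.5-fold, with a median log2 ratio of 1.33 against 0.21 for the 7 neuron class factors at that level. Their summed level was 239 FPKM in mutant embryos against 109 FPKM in wildtypes. *Tubb3*, the neuronal tubulin, was at 99.9 and 37.0 FPKM (log2 ratio 1.43), *Stmn2*, a microtubule regulator of growing axons, at 22.6 and 11.5 FPKM (0.97), and *Nefm*, a neurofilament subunit, at 16.6 and 5.51 FPKM (1.57). Neural progenitor genes had a median log2 ratio of 0.33, with all 7 higher and *Fabp7* the only one past 1.5-fold (43.1 and 20.6 FPKM, 1.06). *Msi1* (82.6 and 65.6 FPKM, 0.33) and *Nes* (59.1 and 41.2 FPKM, 0.52) were the most abundant of these. *Hes5*, named after its values were seen, was at 26.8 and 18.6 FPKM (0.52). The log2 ratios of *Fabp7*, *Msi1* and *Nes* were above the 95th percentile, 0.21, of loci over 30 FPKM. That of *Hes5* was above the 0.27 of loci between 10 and 30 FPKM, while *Sox1*, *Sox2* and *Sox3* lay below these percentiles. Tail bud genes went the other way, with all 8 lower, 5 of them past 1.5-fold and a median log2 ratio of -1.03. *T* was at 3.23 and 7.75 FPKM, *Cdx2* at 3.22 and 10.1 FPKM and *Msgn1* at 2.88 and 7.57 FPKM. The part that neuron content or developmental stage plays in the values of the 9 genes was not tested.

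**Figure D4:**
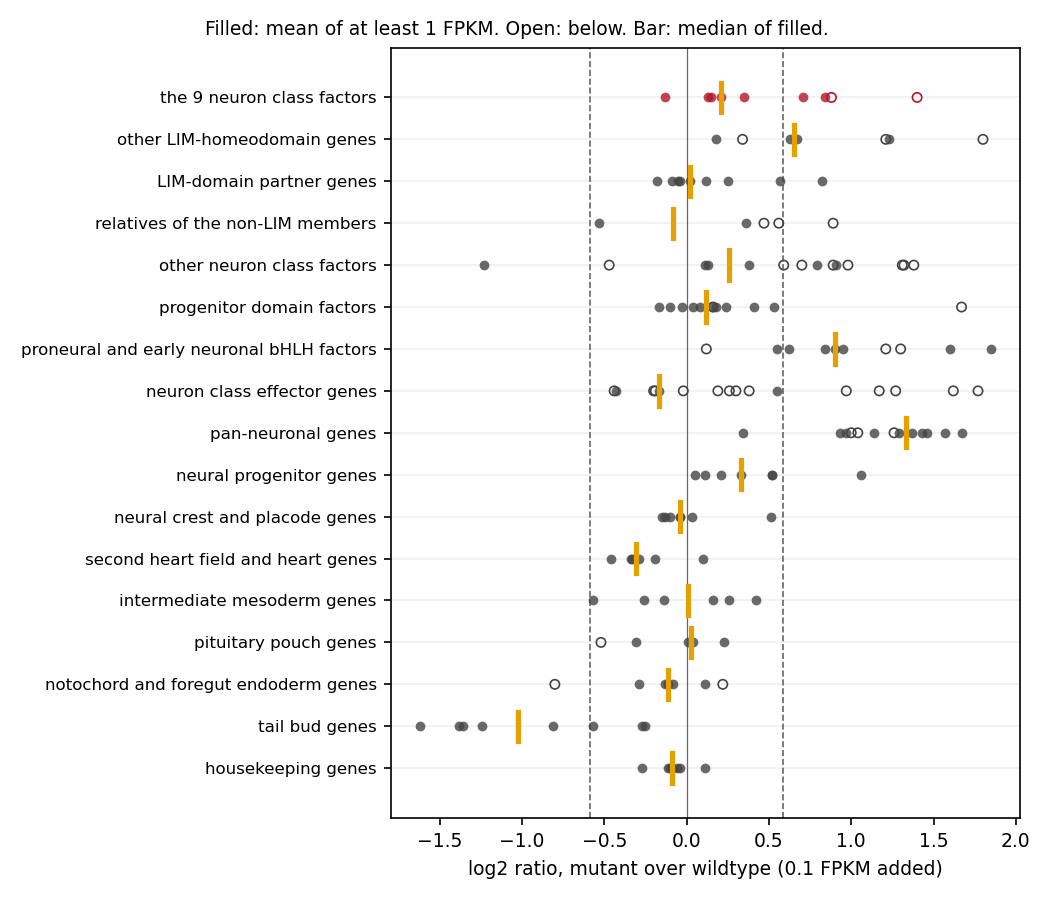
Log2 ratio of mutant over wildtype FPKM (0.1 FPKM added) for each gene of the lists, 1 point per gene, filled where the mean was at least 1 FPKM and open where it was lower, with an orange bar at the median of the filled points and dashed lines at 1.5-fold. The filled points of the neuron class factors, in red, are 7 genes with a median of 0.21, between those of pan-neuronal genes (1.33) and tail bud genes (-1.03).

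Lists for other tissues that express one of the 9 genes had medians close to or below 0, although single genes in them were higher in mutant embryos. In the second heart field list, which bears on *Isl1*, 5 of 6 genes were lower (median log2 ratio -0.31), with *Hand2* at 12.2 and 11.4 FPKM and *Tbx20* at 5.12 and 7.09 FPKM. The intermediate mesoderm list, which bears on *Lhx1*, had 3 genes higher and 3 lower (median 0.01, log2 ratios from -0.57 to 0.42). In it *Emx2* was at 5.37 and 4.47 FPKM and *Osr1* at 3.57 and 4.29 FPKM. Of the pituitary pouch list, which bears on *Lhx3*, 3 of 4 genes were higher (median 0.02), and *Pitx1* had a log2 ratio of 0.01. For notochord and foregut endoderm, which bear on *Mnx1*, 4 of 5 genes were lower (median -0.11), with *Shh* at 8.22 and 7.59 FPKM and *Foxa2* at 3.81 and 4.03 FPKM. The neural crest and placode list, from which sensory neurons derive, had 5 of 7 genes lower (median -0.04), with a log2 ratio of -0.04 for *Eya1*. *Eya2*, named after its values were seen, was higher, at 9.18 and 6.43 FPKM (log2 ratio 0.51). That was above the 95th percentile, 0.43, of loci between 5 and 10 FPKM. None of the genes counted in these 5 lists was past 1.5-fold, and their part in the values of *Isl1*, *Lhx1*, *Lhx3* and *Mnx1* was not tested. Housekeeping genes had a median log2 ratio of -0.09, with *Ppia* at 3784 and 3948 FPKM and *Pgk1* at 804 and 972 FPKM.

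Over the 2 values that each gene has, the listed genes of at least 1 FPKM on average with a log2 ratio nearest to the median of 0.21 were *Sox3*, a progenitor factor, at 0.21, *Pomc* at 0.23, *Nkx2-2* at 0.24 and *Pax3* and *Lmx1a* at 0.18. Such a likeness rests on 1 ratio per gene.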

How the data were processed

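RNA was sequenced by the authors from 6 male E9.5 embryos, 3 for each genotype, as nondirectional single-end libraries. Per the submitters' processing notes, reads were aligned to mm10 with TopHat2 2.0.6 and Bowtie2 2.0.2, and the genotypes were compared with Cufflinks and Cuffdiff 2.0.2. The deposited table gives 1 FPKM value per locus and genotype, pooled by the authors over embryos, and no counts, so depth and sampling error are unknown. Its fold change, test statistic, p-value and q-value columns hold the authors' own comparison and were not used. The columns were assigned to genotypes by the copy of this comparison that accompanies the study.

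Loci without a symbol (1110) and those marked as failed (134) or as having too many reads (1) were left out. Locus starts were counted from 1, since 8917 of 19967 symbols then matched RefSeq, and 571 without this shift. Log2 ratios of mutant over wildtype used a pseudocount of 0.1 FPKM, and medians and counts used loci whose mean reached 1 FPKM. No test was possible. The calculation of a median was checked on simulated tables, in which random loci were shifted by a known amount. That check used no pseudocount and scatter centred on no change. It compared no lists and does not bear on the upward shift of low loci.

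The members and lists were chosen with earlier results of these data known. Beyond the 9 members, the named genes were, for each list, up to 4 (3 for pan-neuronal, progenitor and non-neuronal lists) of the highest mean FPKM among those past 1.5-fold, or the 2 most abundant where fewer than 2 were, and the 5 nearest to the members' median. Some genes that this rule named are not reported here. One listed pan-neuronal gene was not analysed here, and 1 LIM-domain partner had a failed estimate. Protein sequences were not used here. Alternatives covered the pseudocount, the filter, the scaling, the fold and the loci used. Gene structures came from GENCODE M21 and promoters from RefSeq (GRCm38.p6). Python 3.11.15, numpy 2.4.6, pandas 2.3.3 and matplotlib 3.10.9 were used.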

Additional observations from a re-analysis of the deposited data

How the results depend on the processing

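The log2 ratio of each of the 9 genes kept its sign under every setting that gave it a value. A pseudocount, a filter or a choice of loci cannot change that sign, so only the scalings could have done so. Over 3 other scalings none moved by 0.1, where equal upper quartiles and equal totals changed mutant values by factors of only 1.012 and 0.989. The count of members past 1.5-fold, 2 of 7, became 4 of 9 with no filter on low values and 0 with 1 FPKM added, with a mean of at least 5 FPKM (which leaves *Isl1* alone) or at 2-fold. The median of 0.21 became 0.35 with no filter and 0.35 at a mean of at least 5 FPKM. It stayed between 0.15 and 0.28 under the other pseudocounts and scalings, with loci marked deep enough and without shared loci. With 1 FPKM added, the log2 ratio of *Tlx3* went from 1.40 to 0.55, that of *Lhx3* to 0.41, *Isl2* to 0.54 and *Pou4f1* to 0.50, by the arithmetic of the pseudocount. Some list medians near 0 changed sign. With no filter, that of the relatives of *Phox2a*, *Pou4f1* and *Tlx3* became 0.47 and that of neuron class effector genes 0.28, from more low genes. The notochord and foregut median was 0.11 at a mean of at least 5 FPKM, where 1 gene is left. The intermediate mesoderm median was -0.01 with equal totals and -0.26 without shared loci. Other medians moved without a change of sign when shared loci were left out. That of neural progenitor genes went from 0.33 to 0.52 and that of other neuron class factors from 0.26 to 0.38. The pan-neuronal median went from 1.33 to 1.21. No embryo could be left out, since the values are pooled, and what a single embryo contributes is unknown. No paired analysis was possible because the table has 1 pooled column per genotype.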

Other observations

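Of the other neuron class factors, 8 had a mean below 1 FPKM, and 7 of these were higher in mutant embryos. The 4 with the highest log2 ratios and the 1 lower gene were named after their values were seen, as were the other genes here. The lower gene was *Evx2*, at 0.111 and 0.193 FPKM, a log2 ratio of -0.47. *Lbx1*, a factor of dorsal association interneurons, was at 1.21 FPKM in mutant embryos against 0.430 FPKM in wildtypes, a log2 ratio of 1.31. *Prrxl1*, which acts with *Tlx3* in dorsal horn and sensory neurons, was at 0.481 and 0.133 FPKM, a log2 ratio of 1.32, close to the 1.40 of *Tlx3*. *Onecut3* had a log2 ratio of 1.38 and *Barhl1*, of dorsal interneurons, one of 0.98. The loci of *Evx2* and *Onecut3* were not marked as deep enough for comparison. *Dbh*, the noradrenaline-making enzyme found in *Phox2a*-dependent neurons, was at 0.597 and 0.126 FPKM (log2 ratio 1.62), while *Phox2a* was at 1.51 and 1.67 FPKM. At mean levels from 0.3 to 1 FPKM, which hold all of these but *Evx2*, *Onecut3* and *Phox2a*, 16.9% of all named loci were at least 1.5-fold higher and 5.78% at least 1.5-fold lower in mutant embryos.

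Of 4 listed markers of inhibitory transmission, all low in both genotypes, 3 were lower in mutant embryos. *Gad1* was at 0.160 FPKM in mutant embryos against 0.251 FPKM in wildtypes, *Gad2* at 0.156 and 0.192 FPKM and *Slc32a1* at 0.114 and 0.146 FPKM, and the loci of *Gad1* and *Gad2* are shared with other genes. The fourth, *Slc6a5*, was at 0.0200 FPKM in mutant embryos and listed at 0 in wildtypes. *Slc17a6*, of excitatory neurons, was at 0.293 and 0.0632 FPKM. The authors' program marked none of the loci of *Slc17a6* and the 4 inhibitory markers as deep enough for comparison. The share of loci lower at such levels was not computed, so no direction is read from these values.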
